A study of Schizosaccharomyces pombe 972h- with 8 samples.

Results

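The mitochondrial ribosomal proteins of fission yeast were followed through 30 minutes of oxidative stress. Genes were taken into the group by name: any part of the gene's identifier had to read mrp, mrpl, mrps or rsm followed by a number, or img followed by 1 digit. This rule found 48 of the 4854 genes measured on both platforms, and the annotated product was a mitochondrial ribosomal protein for 47 of them, 28 of the large subunit and 19 of the small. The remaining gene, rsm1 (SPCC1753.05), is annotated as a zinc finger RNA export factor that shares only the letters of its name with the ribosomal genes. It was therefore kept apart and counted in no subunit.

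The cells were Schizosaccharomyces pombe wild-type 972 h- grown in YE medium, as 2 cultures, each started from its own single colony. One group, H2O2, was sampled 30 minutes after hydrogen peroxide was added to 0.5 mM, and the other, control, was taken from the same 2 cultures just before the addition. The same RNA was hybridised to a tiling array, called Sp_TMA, and to an expression array, called Sp_EMA, so each platform has 2 H2O2 and 2 control arrays, 8 in all. Calls made on both platforms are repeat measurements of the same 4 RNA samples and not further cultures. Replicate 1 of each condition was taken as culture 1 and replicate 2 as culture 2, a match that the labels do not state. The target for Sp_TMA kept the strand of the RNA, whereas that for Sp_EMA was double-stranded and did not separate a gene from transcripts of the opposite strand.

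Mitochondria carry their own ribosome, which translates the few proteins encoded by mitochondrial DNA, in yeasts mostly subunits of the respiratory chain and the ATP synthase. Nearly all of its proteins are encoded in the nucleus, translated in the cytosol and imported. Some have bacterial counterparts, marked u or b in the current names (uL22m, bS1m), and others, marked m (mL54, mS37), are known from mitochondrial ribosomes. Hydrogen peroxide is a reactive oxygen species, and in fission yeast it activates the stress kinase Sty1 and the transcription factors Atf1 and Pap1.

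The peroxide response itself was present in every array set. The catalase gene ctt1 rose by 3.19 on the log2 scale on Sp_TMA and 2.99 on Sp_EMA, sulfiredoxin srx1 by 3.46 and 2.29, and glutathione peroxidase gpx1 by 1.59 and 1.31. All 6 of these changes passed the threshold used throughout, a Benjamini-Hochberg adjusted p below 0.05 over all 4854 genes in limma (two-sided). Arrays of 1 condition correlated at 0.997 on Sp_TMA and 0.998 on Sp_EMA across genes. Values are log2 of the gene-level intensity, changes are H2O2 minus control, and because levels depend on each gene's probes they are compared within a gene and a platform only.

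The sequence upstream of the transcript start was read first, because in this yeast the cytosolic ribosomal protein genes carry a known promoter element, the HomolD box, and the question was whether genes of the mitochondrial ribosome share it. The core CAGTCAC was searched on both strands of the 250 bases before each annotated start in the RefSeq ASM294v3 genome. It was found in 115 of 125 cytosolic ribosomal protein promoters (92%), at a median of 52 bases before the start, and in 4.52% of all 5112 protein-coding promoters. None of the 28 large-subunit promoters and none of the 19 small-subunit promoters held it. The same window was searched for TGACGT, the core of an Atf1 site, found in 3 of 28 large-subunit promoters (mrpl6, mrpl9 and mrpl38), in 0 of 19 small-subunit promoters and in 5.52% of all promoters. CCAAT, the box read by the Php complex, stood in 11 of 28 large-subunit and 3 of 19 small-subunit promoters, against 35.3% of all. A further box of cytosolic ribosomal protein promoters, HomolE (ACCCT written 2 times in a row), was added after the sequences had been seen. It stood in 38 of 125 cytosolic promoters (30.4%), in 1.21% of all promoters, and among the mitochondrial genes only in mrp51, 62 bases before the start. Neither a match nor its absence in this window says whether a factor binds.

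The mitochondrial promoters shown are those of mrp51 and mrp10, which rose on both platforms, and of mrps8, mrpl31 and mrpl3, which are 3 of the 10 that fell on both. These 3 are examples chosen with their values and sequences known, mrpl3 for its CCAAT and the others as a small- and a large-subunit gene without a match. Of the other 7, mrpl23 held a CCAAT and the rest held no match. The promoters of rpl22 and rps1502, the first large- and small-subunit cytosolic genes by systematic name with a HomolD core, are shown for contrast. Each is written 5′ to 3′ in the direction of its gene and ends at the base before the annotated start, in ASM294v3 coordinates, and capitals mark a match to one of these 4 motifs on either strand.
mrp51 (chrI:4113659-4113908, minus strand): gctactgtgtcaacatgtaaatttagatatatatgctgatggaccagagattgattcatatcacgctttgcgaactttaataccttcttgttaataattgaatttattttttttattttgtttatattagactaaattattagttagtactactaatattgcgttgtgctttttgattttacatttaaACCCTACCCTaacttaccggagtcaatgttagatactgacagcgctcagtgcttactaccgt
mrp10 (chrI:3072184-3072433, minus strand): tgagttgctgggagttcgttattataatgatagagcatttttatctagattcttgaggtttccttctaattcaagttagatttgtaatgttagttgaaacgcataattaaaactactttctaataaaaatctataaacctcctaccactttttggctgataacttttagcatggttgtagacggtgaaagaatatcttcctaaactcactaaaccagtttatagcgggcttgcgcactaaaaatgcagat
mrps8 (chrIII:332567-332816, minus strand): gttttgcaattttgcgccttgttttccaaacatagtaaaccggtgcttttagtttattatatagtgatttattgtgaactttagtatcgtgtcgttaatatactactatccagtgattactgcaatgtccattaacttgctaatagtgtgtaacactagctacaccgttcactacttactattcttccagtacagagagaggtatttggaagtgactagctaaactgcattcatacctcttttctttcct
mrpl31 (chrIII:888336-888585, plus strand): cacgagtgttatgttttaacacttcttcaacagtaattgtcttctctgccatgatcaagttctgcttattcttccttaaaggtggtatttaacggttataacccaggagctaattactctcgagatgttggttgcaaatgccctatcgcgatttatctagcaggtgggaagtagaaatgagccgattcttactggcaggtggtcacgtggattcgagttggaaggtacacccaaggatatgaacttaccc
mrpl3 (chrII:4010872-4011121, minus strand): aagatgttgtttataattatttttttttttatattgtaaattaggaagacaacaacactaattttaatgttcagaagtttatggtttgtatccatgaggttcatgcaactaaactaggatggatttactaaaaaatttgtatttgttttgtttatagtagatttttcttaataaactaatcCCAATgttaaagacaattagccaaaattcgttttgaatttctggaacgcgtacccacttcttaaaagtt
rpl22 (chrI:5314574-5314823, plus strand): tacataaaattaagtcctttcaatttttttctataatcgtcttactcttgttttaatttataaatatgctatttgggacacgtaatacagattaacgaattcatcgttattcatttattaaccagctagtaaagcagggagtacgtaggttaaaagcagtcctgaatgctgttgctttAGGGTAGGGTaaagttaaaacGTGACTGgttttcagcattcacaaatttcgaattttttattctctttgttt
rps1502 (chrI:3868979-3869228, minus strand): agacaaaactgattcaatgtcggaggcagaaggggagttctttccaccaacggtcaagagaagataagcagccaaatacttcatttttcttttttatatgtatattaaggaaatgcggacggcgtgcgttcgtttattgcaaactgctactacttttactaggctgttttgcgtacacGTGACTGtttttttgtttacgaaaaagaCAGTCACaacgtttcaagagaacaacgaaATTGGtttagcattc
In rpl22 the HomolE and HomolD letters stand close together, both on the reverse strand, and in rps1502 the HomolD letters appear in both orientations. In mrp51 the HomolE letters stand alone, in mrpl3 the capitals are a CCAAT 69 bases before the start, and in mrp10, mrps8 and mrpl31 no capitals appear.

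Messenger RNAs of the mitochondrial ribosome changed by less than 2-fold in H2O2. None of the 47 reached a 2-fold change on either platform, while 10.5% of all genes did so on Sp_TMA and 10.2% on Sp_EMA. The median change was -0.08 for the large and -0.05 for the small subunit on Sp_TMA, where the median of all genes was -0.05. On Sp_EMA it was -0.18 and -0.22, with -0.07 for all genes. On Sp_TMA the quartiles ran from -0.28 to 0.08 for the 47 members and from -0.35 to 0.27 for all genes. On Sp_EMA they ran from -0.35 to -0.07 for the members and from -0.36 to 0.16 for all genes. The band of these mRNAs was thus narrower than that of all genes, and on Sp_EMA its upper edge lay below 0. In a bulk culture, a change in every cell and a change in some of the cells cannot be told apart.

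Within that band the members of the subunits differed in the directions called. In the large subunit 8 of 28 genes fell on Sp_TMA and 14 on Sp_EMA, and none of the 28 was called higher on either platform. In the small subunit Sp_TMA called 3 of 19 genes lower and 5 higher, whereas Sp_EMA called 9 lower and 2 higher. The background for these counts is high: 31.3% of all genes were called lower and 25.2% higher on Sp_TMA, and 36.2% lower and 22.7% higher on Sp_EMA. The share of the 47 members called lower was 23.4% on Sp_TMA, below that background, and 48.9% on Sp_EMA, above it. Calls of higher level made up 10.6% and 4.26% of the members, below the background on both platforms. By subunit, 28.6% of the large and 15.8% of the small were called lower on Sp_TMA, and 50% and 47.4% on Sp_EMA. Rises made up 0% of the 28 large-subunit members on both platforms. In the small subunit they made up 26.3% on Sp_TMA, near the background, and 10.5% on Sp_EMA, below it. Single arrays moved these counts. On Sp_TMA the large subunit had 4 falls without either array of culture 1 (1 of them, mrp20, a new call without the control array) and 3 without the control array of culture 2, and the small subunit had 0 falls without either array of culture 2 and 3 rises without any array other than that control array, which gave 4. On Sp_EMA the falls numbered 6 in the large and 5 in the small subunit without the H2O2 array of culture 2, and 9 in the large subunit without that of culture 1. Whether the subunits differ from each other was not tested, because the members are not replicates of a condition.

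**Figure D1:**
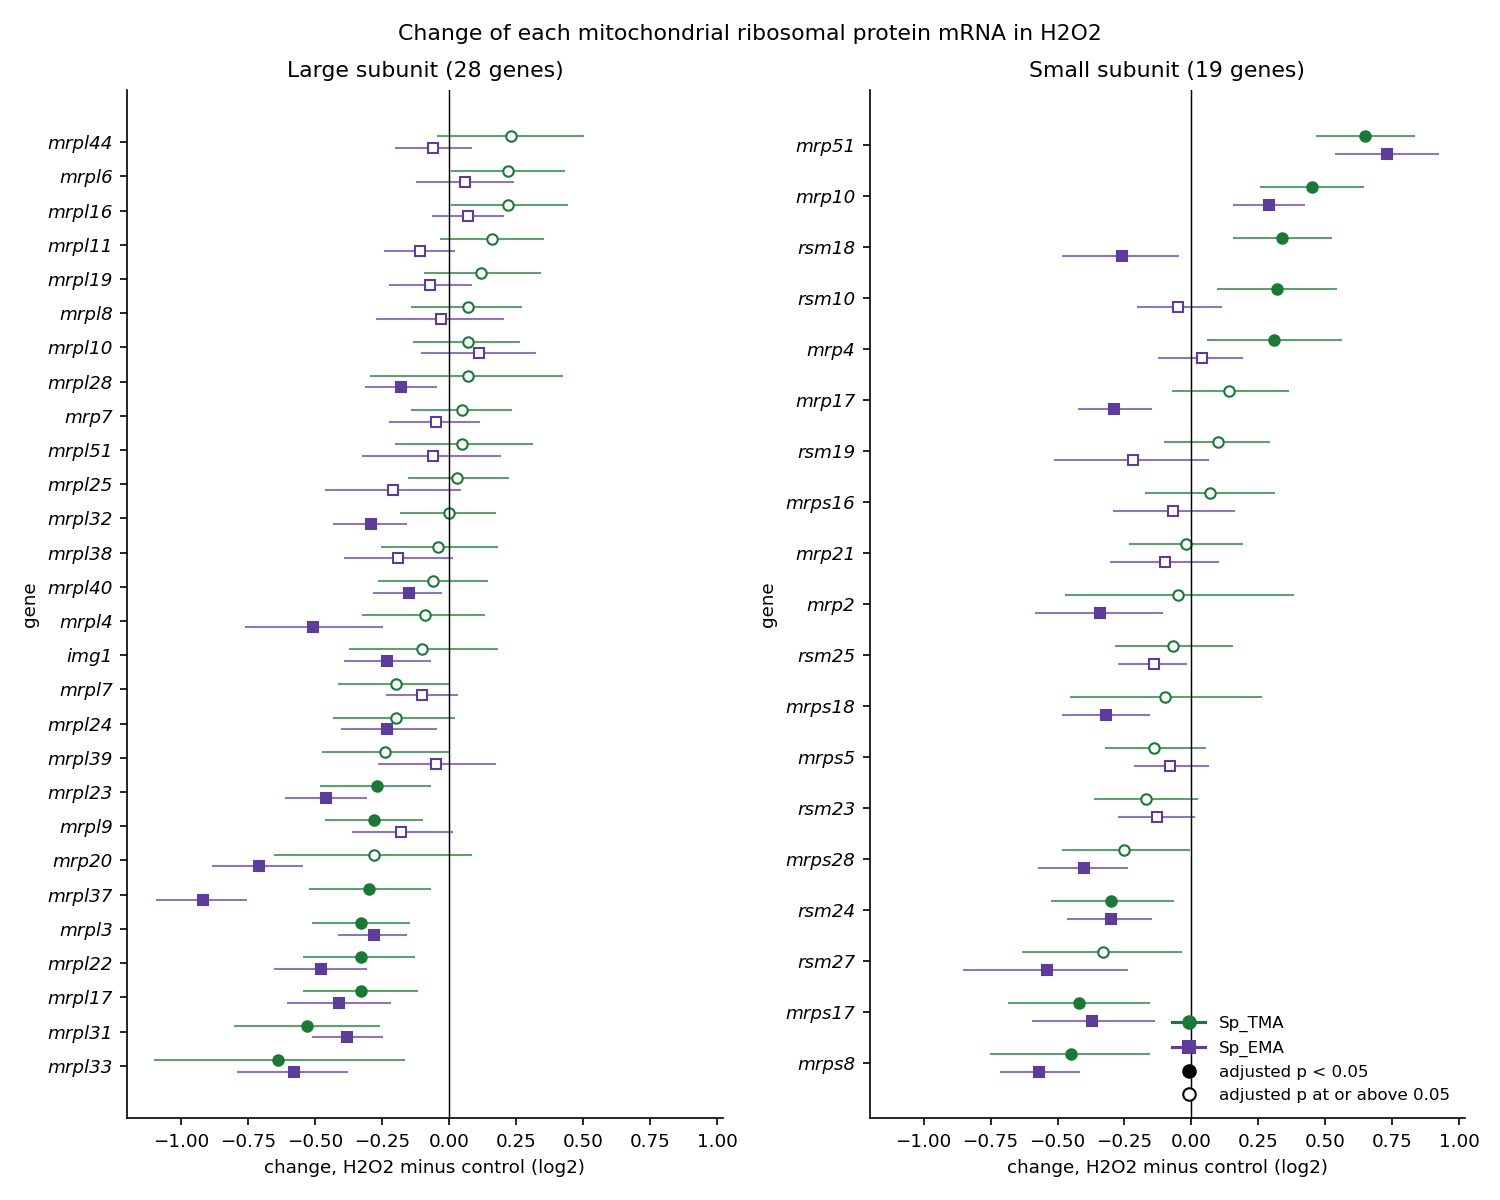
Change of each gene (vertical axis) as H2O2 minus control in log2 units (horizontal axis) on Sp_TMA (green circles) and Sp_EMA (purple squares), with 95% limma intervals as lines and filled symbols for an adjusted p below 0.05. No filled symbol of the large subunit lies to the right of 0, whereas mrp51 and mrp10 of the small subunit have filled symbols there on both platforms.

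In the large subunit 7 genes fell on both platforms, namely mrpl33, mrpl31, mrpl22, mrpl17, mrpl3, mrpl37 and mrpl23. With the 3 of the small subunit this makes 10 of 47 members lower on both, where 27% of all genes were. The genes of these 7 encode uL30m, mL60, uL22m, mL46, mL44, mL54 and uL13m, 4 of them without a bacterial counterpart in their names. In bacteria uL22 reaches into the tunnel through which the new chain leaves the ribosome, and mL44 has the fold of an RNase III enzyme.

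Among these, mrpl33 (chromosome III, 2221979-2222582) had the greatest fall on Sp_TMA. Its log2 level was 7.89 and 8.40 on the H2O2 arrays of cultures 1 and 2, against 8.60 and 8.96 on the control arrays. The groups did not overlap, but the 2 H2O2 arrays stood well apart, and the change of -0.64 had a standard error of 0.19 (n = 2 arrays per group, adjusted p = 0.0294 in limma). On Sp_EMA the levels were 10.21 and 10.17 in H2O2, against 10.67 and 10.87 in control cells, a change of -0.58 ± 0.08 (SE, adjusted p = 0.00253, limma). The arrays were closer there, and H2O2 cells held 66.8% of the control level. On Sp_TMA the change was -0.39 (adjusted p = 0.135) without the H2O2 array of culture 1 and -0.45 (adjusted p = 0.137, limma) without the control array of culture 2.

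The gene mrpl31 (chromosome III, 888586-889295), coding for mL60, had 9.58 and 9.48 in H2O2, against 9.92 and 10.19 in control cells on Sp_TMA. On Sp_EMA it had 11.06 and 11.10 in H2O2, against 11.45 and 11.46 in control cells. Both pairs were separate, with changes of -0.53 ± 0.11 (SE, adjusted p = 0.00761) and -0.38 ± 0.05 (SE, adjusted p = 0.00214, limma). In the control cells of Sp_TMA culture 2 lay above culture 1, and the change was -0.34 in culture 1 and -0.72 in culture 2, a gap that was absent on Sp_EMA (-0.39 and -0.37).

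The gene mrpl22 (chromosome III, 2028174-2029134), for uL22m, behaved alike in both cultures. It had 11.25 and 11.33 in H2O2, against 11.57 and 11.68 in control cells on Sp_TMA, and 11.61 and 11.63 in H2O2, against 12.02 and 12.17 in control cells on Sp_EMA. No H2O2 array reached a control array. The changes were -0.33 ± 0.08 (SE, adjusted p = 0.0148) and -0.48 ± 0.07 (SE, adjusted p = 0.0028, limma), and cultures 1 and 2 gave -0.32 and -0.35 by the tiling array and -0.42 and -0.55 by the expression array.

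The falls of mrpl3, mrpl17 and mrpl23 were of the same order. For mrpl3 (mL44) the H2O2 arrays gave 9.96 and 9.93 on Sp_EMA, against 10.22 and 10.23 on the control arrays, so the replicates lay close together. Its change was -0.33 on Sp_TMA and -0.28 on Sp_EMA. For mrpl17 (mL46) the change was -0.33 and -0.41, and for mrpl23 (uL13m) -0.27 and -0.46. All 7 genes moved down in both cultures on both platforms.

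The gene mrpl37 (chromosome III, 1254318-1255226), for mL54, fell on both platforms but by unequal amounts. On Sp_EMA it had 10.33 and 10.42 in H2O2, against 11.25 and 11.35 in control cells, and on Sp_TMA 9.65 and 9.82 in H2O2, against 10.08 and 9.98 in control cells. The fall was -0.92 ± 0.06 (SE, adjusted p = 2.9e-04) on Sp_EMA, the greatest among the 47 members there and close to 2-fold, and -0.30 ± 0.09 (SE, adjusted p = 0.0334, limma) on Sp_TMA. H2O2 cells thus held 52.7% of the control level by one platform and 81.4% by the other.

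**Figure D2:**
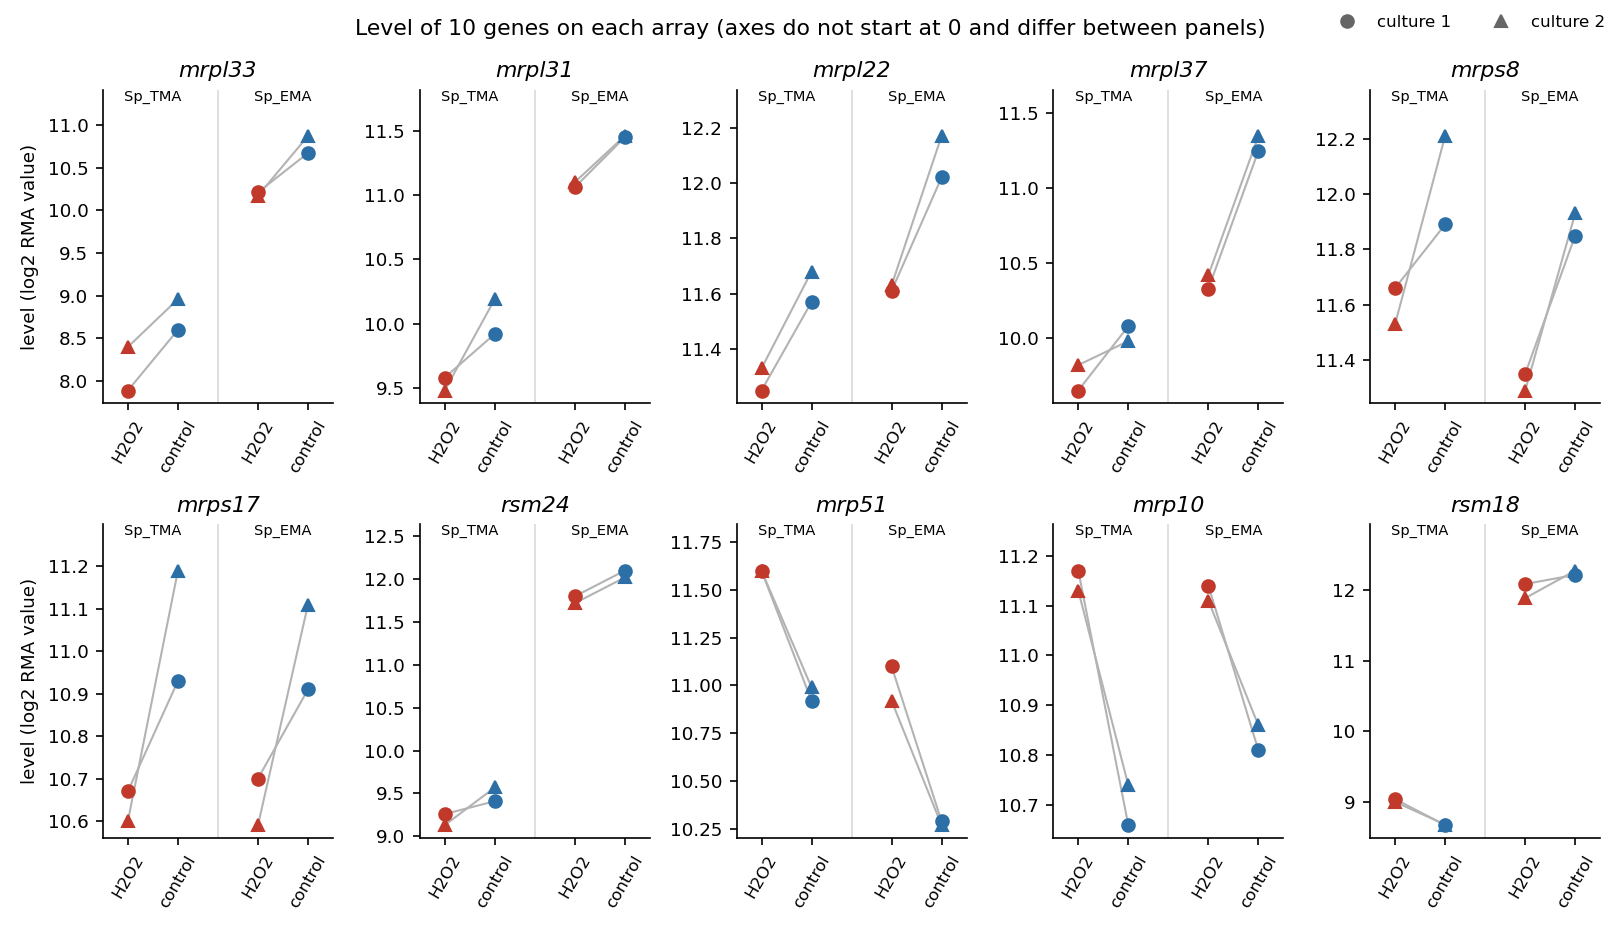
Log2 level (vertical axis, RMA value) of 10 genes on each array, for Sp_TMA at the left and Sp_EMA at the right of each panel, with H2O2 in red and control in blue and grey lines joining the 2 arrays of a culture. In mrp51 and mrp10 the H2O2 symbols lie above the control symbols on both platforms, in the genes from mrpl33 to rsm24 below them, and in rsm18 above on Sp_TMA and below on Sp_EMA.

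Another 8 large-subunit genes were called on 1 platform. The fall of mrpl9, for uL3m, which in bacteria is among the first proteins to bind the large rRNA, was called on Sp_TMA only (-0.28, adjusted p = 0.0188, limma), with -0.18 on Sp_EMA (adjusted p = 0.0886). Called on Sp_EMA only were mrp20, mrpl4, mrpl32, mrpl24, img1, mrpl28 and mrpl40, for uL23m, uL29m, bL32m, bL28m, bL19m, mL40 and uL24m. In bacteria uL23, uL24 and uL29 stand around the exit of the peptide tunnel. The mitochondrial genes for these 3 changed on Sp_EMA by -0.71 (mrp20), -0.15 (mrpl40) and -0.51 (mrpl4), where Sp_TMA gave -0.28, -0.06 and -0.09.

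Of these, mrp20 (chromosome I, 402886-403862) had the second greatest fall on Sp_EMA, with 9.94 and 9.83 in H2O2, against 10.56 and 10.64 in control cells. On Sp_TMA it had 10.00 and 9.91 in H2O2, against 10.01 and 10.47 in control cells, so that culture 1 changed by -0.01 and culture 2 by -0.56. The adjusted p there was 0.154 in limma. Blocking on the culture (replicate block) gave 0.04. For mrpl40 and mrpl28, whose adjusted p on Sp_EMA was 0.0464 and 0.0317, the blocked fit gave 0.0691 and 0.0508.

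The remaining 13 large-subunit genes passed the threshold on neither platform. Their changes ran up to 0.23 (mrpl44) and down to -0.24 (mrpl39) on Sp_TMA. The 3 with the highest values on Sp_TMA, mrpl44 (mL53), mrpl6 (uL6m) and mrpl16 (uL16m), had 0.23, 0.22 and 0.22 there and -0.06, 0.06 and 0.07 on Sp_EMA. A p above the threshold does not show that these levels stayed the same, but the intervals set a limit: for the 31 members of both subunits not called on Sp_TMA every 95% interval lay between -0.65 and 0.50, and for the 22 not called on Sp_EMA between -0.51 and 0.32. The array signal in control cells on Sp_TMA, which depends on the probes and gives no order of mRNA amounts, was brightest for mrpl23 (11.79) and mrpl10 (11.63) in the large subunit and dimmest for mrpl44 (7.97) and mrpl33 (8.78).

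In the small subunit mrp51 and mrp10 rose on both platforms, 2 of 47 members where 19.8% of all genes did. The gene mrp51 (SPAC23A1.18c, chromosome I, 4111970-4113658) encodes bS1m, which in budding yeast is needed to translate mitochondrial mRNAs. Its level was 11.60 and 11.60 in H2O2, against 10.92 and 10.99 in control cells on Sp_TMA, and 11.10 and 10.92 in H2O2, against 10.29 and 10.27 in control cells on Sp_EMA. The arrays of each group lay close together and the groups far apart. In H2O2 it was 1.57-fold higher on Sp_TMA, a change of 0.65 ± 0.08 (SE, adjusted p = 7.0e-04), and 1.65-fold on Sp_EMA, a change of 0.73 ± 0.07 (SE, adjusted p = 9.4e-04, limma). This was the greatest rise of any member on either platform, and it kept its call without any 1 array.

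The gene mrp10 (SPAC24C9.13c, chromosome I, 3071584-3072183) encodes mS37, a small protein of the CHCH type that in budding yeast is imported with the help of the disulfide relay of the intermembrane space. It had 11.17 and 11.13 in H2O2, against 10.66 and 10.74 in control cells on Sp_TMA, and 11.14 and 11.11 in H2O2, against 10.81 and 10.86 in control cells on Sp_EMA. Again no array of 1 group reached the other. The rise was 0.45 ± 0.08 (SE, adjusted p = 0.00335) and 0.29 ± 0.05 (SE, adjusted p = 0.00632, limma), and leaving out the H2O2 array of culture 1 on Sp_EMA gave an adjusted p of 0.052.

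The small-subunit genes that fell on both platforms were mrps8, mrps17 and rsm24, coding for uS8m, uS17m and mS35. In bacteria uS8 and uS17 bind the small rRNA early in assembly. The gene mrps8 (chromosome III, 331480-332566) had 11.66 and 11.53 in H2O2, against 11.89 and 12.21 in control cells on Sp_TMA, and 11.35 and 11.29 in H2O2, against 11.85 and 11.93 in control cells on Sp_EMA. The control cultures stood well apart on Sp_TMA, where culture 1 changed by -0.23 and culture 2 by -0.67, but close together on Sp_EMA. The overall change was -0.45 ± 0.12 (SE, adjusted p = 0.0198) and -0.57 ± 0.06 (SE, adjusted p = 8.8e-04, limma). Without the control array of culture 2 the change on Sp_TMA was -0.29 (adjusted p = 0.092, limma).

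The gene mrps17 (chromosome II, 1166520-1167297) had 10.67 and 10.60 in H2O2, against 10.93 and 11.19 in control cells on Sp_TMA, with a change there of -0.42 (adjusted p = 0.0159). The change on Sp_EMA was -0.37 (adjusted p = 0.0167, limma). Both platforms showed the same split of cultures, with -0.25 and -0.21 in culture 1 and -0.59 and -0.52 in culture 2. The gene rsm24 (chromosome I, 563926-565073) changed by -0.30 on both platforms, with adjusted p values of 0.0331 (Sp_TMA) and 0.00907 (Sp_EMA) in limma.

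Another 5 fell on Sp_EMA only, namely rsm27 (mS33), mrps28 (uS15m), mrp2 (uS14m), mrps18 and mrp17 (bS6m). Their changes there were -0.54, -0.40, -0.34, -0.32 and -0.29, and on Sp_TMA they were -0.33, -0.25, -0.05, -0.10 and 0.14. With each culture as its own block rsm27 also passed on Sp_TMA (adjusted p = 0.0148, against 0.055 without it). Rises called on Sp_TMA only were those of rsm10 (uS10m, 0.32, adjusted p = 0.0239) and mrp4 (uS2m, 0.31, adjusted p = 0.042, limma), with -0.05 and 0.04 on Sp_EMA. The other 6 genes of the subunit, rsm19, rsm23, rsm25, mrps5, mrps16 and mrp21, passed on neither platform. The signal in control cells on Sp_TMA was brightest for mrp21 (12.45) and mrps8 (12.05) in the small subunit and dimmest for mrp2 (8.32) and rsm18 (8.68).

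The gene rsm18 (SPCC18B5.04, chromosome III, 725990-726792), for bS18m, was called in opposite directions, as were 0.165% of all genes. On Sp_TMA it averaged 9.02 ± 0.03 in H2O2, against 8.68 ± 0.01 in control cells (SD, n = 2 arrays each), a rise of 0.34 ± 0.07 (SE, adjusted p = 0.00849). On Sp_EMA it had 12.09 and 11.89 in H2O2, against 12.22 and 12.28 in control cells, a fall of -0.26 ± 0.08 (SE, adjusted p = 0.0417, limma). Both cultures showed the rise on Sp_TMA (0.37 and 0.32) and the fall on Sp_EMA (-0.13 and -0.40). The calls rested on single arrays: without the H2O2 array of culture 2 the change on Sp_EMA was -0.16 (adjusted p = 0.168), without the control array of culture 1 or 2 its adjusted p was 0.0725 or 0.127, and without the control array of culture 1 the rise on Sp_TMA had an adjusted p of 0.0531 (limma).

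For every gene the difference between the platforms was then tested, as the Sp_TMA change minus the Sp_EMA change. It passed the threshold for mrpl37 (0.63 ± 0.12, adjusted p = 0.0365) and rsm18 (0.61 ± 0.11, adjusted p = 0.0361, SE, limma), both with Sp_TMA above Sp_EMA, as for 1.4% of all genes. Testing the difference within each culture (replicate block) gave 6 members, with mrp17 (0.43), mrp20 (0.43), mrpl4 (0.41) and rsm10 (0.36) added, where that fit called 13.7% of all genes in either direction. In the fit without the block these 4 had adjusted p values of 0.0779, 0.25, 0.163 and 0.134. For mrpl37 and rsm18 the blocked adjusted p was 6.6e-04 and 7.0e-04. In 36 of 47 members (76.6%) the change on Sp_TMA lay above that on Sp_EMA, with a median difference of 0.15, as it did for 59% of all genes, with a median of 0.05.

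**Figure D3:**
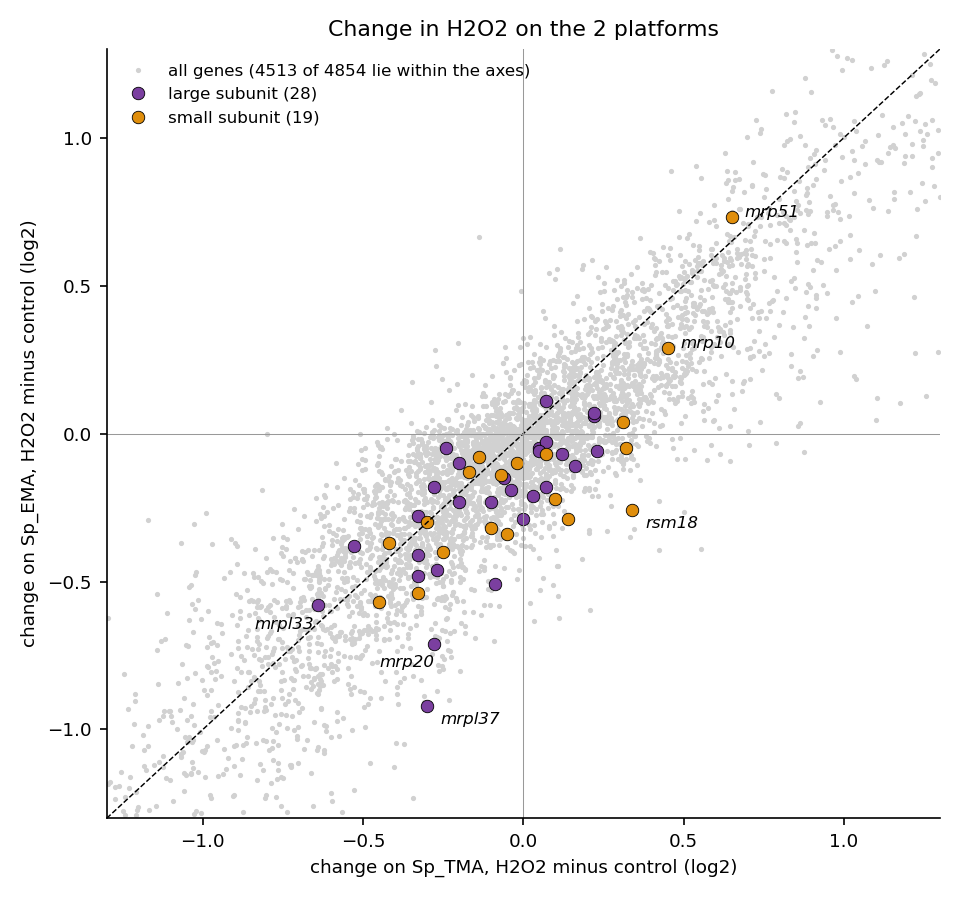
Change in H2O2 (log2) on Sp_TMA (horizontal axis) and on Sp_EMA (vertical axis) for all genes (grey), the large subunit (purple) and the small subunit (orange), with equality as a dashed line and 4513 of 4854 genes within the axes. Most members lie below the dashed line, with mrpl37 and rsm18 farthest from it.

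Since Sp_EMA reads both strands together, annotated transcripts of the opposite strand were listed for each member. In the current annotation 42 of 47 members have one that overlaps the transcript, and in 37 it reaches the coding span. These shares, 89.4% and 78.7%, were close to those of all 4845 annotated genes of the tables, 90.8% and 82.1%. For 29 of these 37 the partner is a long non-coding RNA, and for 8 a protein-coding gene. Long non-coding RNAs were not among the genes analysed here. The coding span of mrpl37 is 420 bases, of which SPNCRNA.7282 covers 381, and that of rsm18 is 501, of which SPNCRNA.6987 covers 307. The part of opposite-strand RNA in the platform differences was not tested.

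Where the partner is a measured gene its own change can be set beside that of the member. The gene apm4, for an adaptor complex subunit, covers all 486 coding bases of mrp20 and itself rose on both platforms (0.26 and 0.17), while mrp20 changed by -0.28 and -0.71. The coding span of mrp4, 792 bases, lies within SPAC24C9.09, which encodes a threonine tRNA ligase and changed by -0.05 and 0.02. The gene cwf3 overlaps 336 bases of the coding span of rsm10 and changed by -0.25 on Sp_TMA, past the threshold, and by -0.03 on Sp_EMA. For mrpl22, mrps28 and mrp2 the partners SPCC1739.01, cog8 and apl6 had changes of 0.18, -0.08 and -0.20 by the tiling array, where the expression array gave 0.13, -0.27 and -0.17. Of these 6 values only that of cog8 on Sp_EMA passed. The partner of mrpl9, rna15, overlaps 10 bases of its coding span and changed by -0.26 on Sp_TMA and -0.37 on Sp_EMA, both past the threshold. That of mrpl33, SPCC1919.07, overlaps 36 and changed by -0.23 on Sp_TMA, past the threshold, and by -0.13 on Sp_EMA. Beside mrp51 the gene bbc1, which rose by 0.38 and 0.31, overlaps 75 bases of the transcript and none of the coding span, and SPNCRNA.3839 covers 225 coding bases.

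The 2 cultures differed in the control cells in a way that ran through most members. On Sp_TMA the control level of culture 2 was above that of culture 1 in 40 of 47 members (85.1%), with a median gap of 0.12, against 56.6% of all genes with a median of 0.02. On Sp_EMA it was so in 39 members (83%), with a median gap of 0.08, against 60.9% of all genes and 0.03. In H2O2 the gap ran the other way: culture 2 was above culture 1 in 15 members on Sp_TMA (31.9%) and 16 on Sp_EMA (34%), with a median of -0.04 on both, against 48.7% and 49.6% of all genes. The 24 mitochondrial ribosomal proteins whose identifiers the rule did not match had culture 2 above culture 1 in the control cells of 20 on each platform. In H2O2 this was so in 6 on Sp_TMA and 5 on Sp_EMA. Other lists, described below, showed gaps too. Culture 2 was higher in control cells in 82.5% (Sp_TMA) and 70% (Sp_EMA) of 40 respiratory genes, and in H2O2 in 42.5% and 37.5%. For 125 cytosolic ribosomal protein genes the shares were 66.4% and 41.6% in control cells and 1.6% and 25.6% in H2O2. For 23 mitochondrial translation genes they were 39.1% and 56.5% in control cells and 43.5% and 39.1% in H2O2.

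The median change differed between the cultures accordingly. The median change of the 47 members was -0.00 in culture 1 and -0.16 in culture 2 on Sp_TMA, and -0.14 and -0.25 on Sp_EMA, with -0.02 and -0.08 and then -0.05 and -0.09 for all genes. All 16 calls on Sp_TMA and all 25 on Sp_EMA had the same direction in both cultures. When each array was left out in turn, 2 calls on Sp_TMA stayed past the threshold in all 4 fits, the rises of mrp51 and mrp10. On Sp_EMA 10 did, namely the falls of mrpl22, mrpl23, mrpl31, mrpl33, mrpl37, mrp20, mrps8, mrps28 and rsm27 and the rise of mrp51. Fits without 1 array have fewer degrees of freedom, and the array left alone in its group is assumed to vary like the others.

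**Figure D4:**
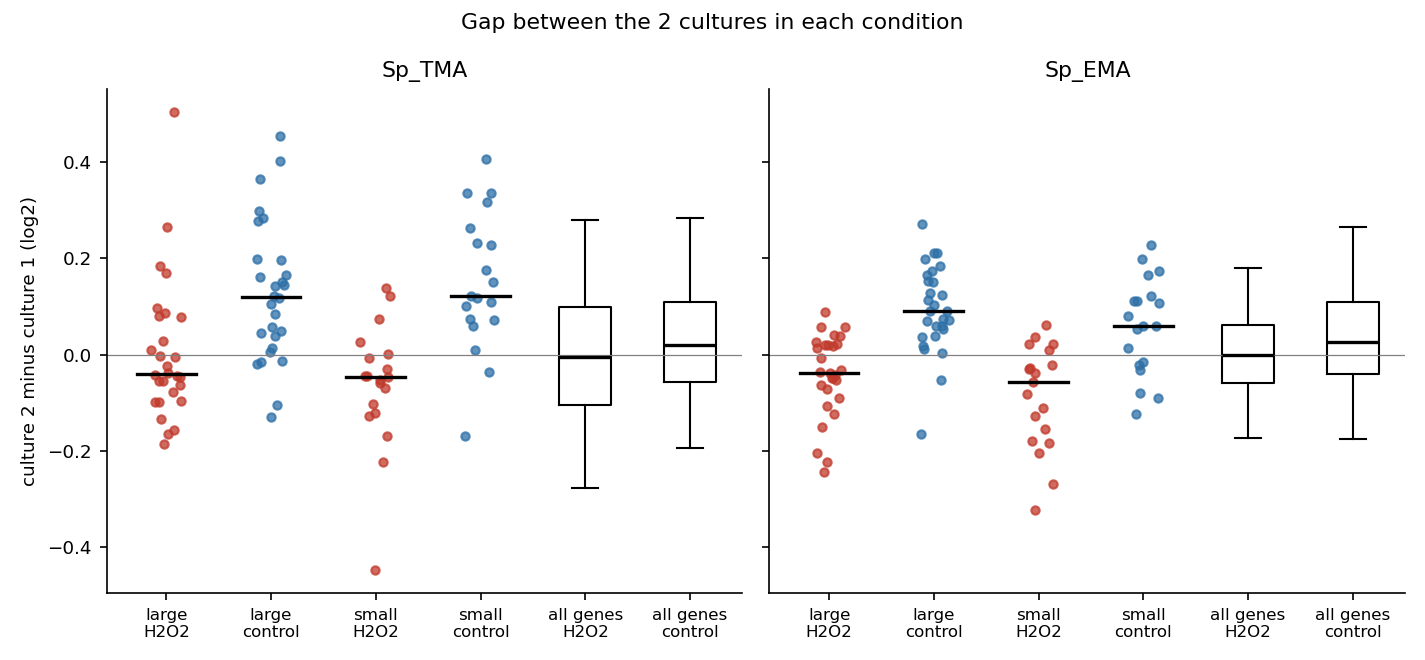
Level in culture 2 minus level in culture 1 (log2, vertical axis) for each large- and small-subunit gene in H2O2 (red) and control cells (blue) on Sp_TMA and Sp_EMA, with the median as a black line and all genes as boxes (quartiles) with whiskers from the 5th to the 95th percentile. The control points lie mostly above 0 and the H2O2 points mostly below it, on both platforms.

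Mitochondrial ribosomal proteins that the rule did not reach were measured too. Some of them, such as mrpl20 and img2, carry names of the same form in the current annotation but not in the deposited identifiers. Of these 24 genes Sp_TMA called 5 lower and 3 higher, and Sp_EMA 10 lower and 1 higher, with median changes of 0.06 and -0.17. The share called lower was 20.8% on Sp_TMA, below the 31.3% of all genes, and 41.7% on Sp_EMA, above the 36.2%. The 5 that fell on both were mrpl20 (mL58), mhr1 (mL67), rml2 (uL2m), mug178 and SPBC3H7.04 (mS42), and the one that rose on both was fyv4 (mS41, 0.35 and 0.38). Called higher on Sp_TMA only were the large-subunit genes mrpl15 (mL57, 0.49, adjusted p = 0.00751) and rtc6 (bL36m, 0.28, adjusted p = 0.0198, limma). Their changes on Sp_EMA were 0.17 and 0.12, not past the threshold. The lack of rises in the large subunit therefore held only for the genes that the rule matched. Like mrp51, mug178 is annotated as bS1m, and it went the other way, with changes of -0.35 and -0.54 (adjusted p = 0.0169 and 0.00195, limma).

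Factors that work with the ribosome changed in both directions. Of 23 genes for mitochondrial translation Sp_TMA called 7 higher and 8 lower, and Sp_EMA 7 higher and 9 lower, with medians of -0.06 and -0.08. These are 30.4% and 34.8% on Sp_TMA and 30.4% and 39.1% on Sp_EMA. They lay somewhat above the shares of all genes, 25.2% and 31.3% on Sp_TMA and 22.7% and 36.2% on Sp_EMA. On both platforms 6 rose and 8 fell, where 19.8% and 27% of all genes did. The 6 that rose on both included ppr8, for a PPR-repeat RNA-binding protein (1.81 and 1.17), and cbp6 (0.95 and 0.48) and cbp3 (0.59 and 0.50), whose budding yeast counterparts act together in making cytochrome b. The elongation factor EF-Ts (tsf1, 0.31 and 0.36), the initiation factor mti3 (0.41 and 0.27) and mba1, which in budding yeast links the ribosome to the inner membrane (0.48 and 0.44), also rose. Among the 8 that fell on both were the release factor mrf1 (-0.49 and -0.47), the recycling factor rrf1 (-0.66 and -0.56) and the elongation factor G gene mef2 (-0.39 and -0.91).

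The respiratory chain and ATP synthase, to which the products of this ribosome belong, had few calls. Of its 40 genes measured here, Sp_TMA called 9 higher and 2 lower, with a median of 0.14, and Sp_EMA called 4 higher and 1 lower, with a median of -0.02. The shares called higher, 22.5% and 10%, were below those of all genes (25.2% and 22.7%), as were the shares called lower, 5% and 2.5%. The 125 cytosolic ribosomal protein genes had 18 falls and no rise on Sp_TMA, with a median of -0.18, and 5 falls and no rise on Sp_EMA, with a median of -0.05. Their shares called lower, 14.4% and 4%, were below those of all genes (31.3% and 36.2%). The order of the medians of cytosolic and mitochondrial ribosomal proteins was thus not the same on the 2 platforms. The cytosolic median on Sp_TMA was uneven between the cultures, -0.05 in culture 1 and -0.32 in culture 2, where the 47 members had -0.00 and -0.16. On Sp_EMA it was -0.04 and -0.05, against -0.14 and -0.25 for the members. None of these differences between lists was tested.

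**Figure D5:**
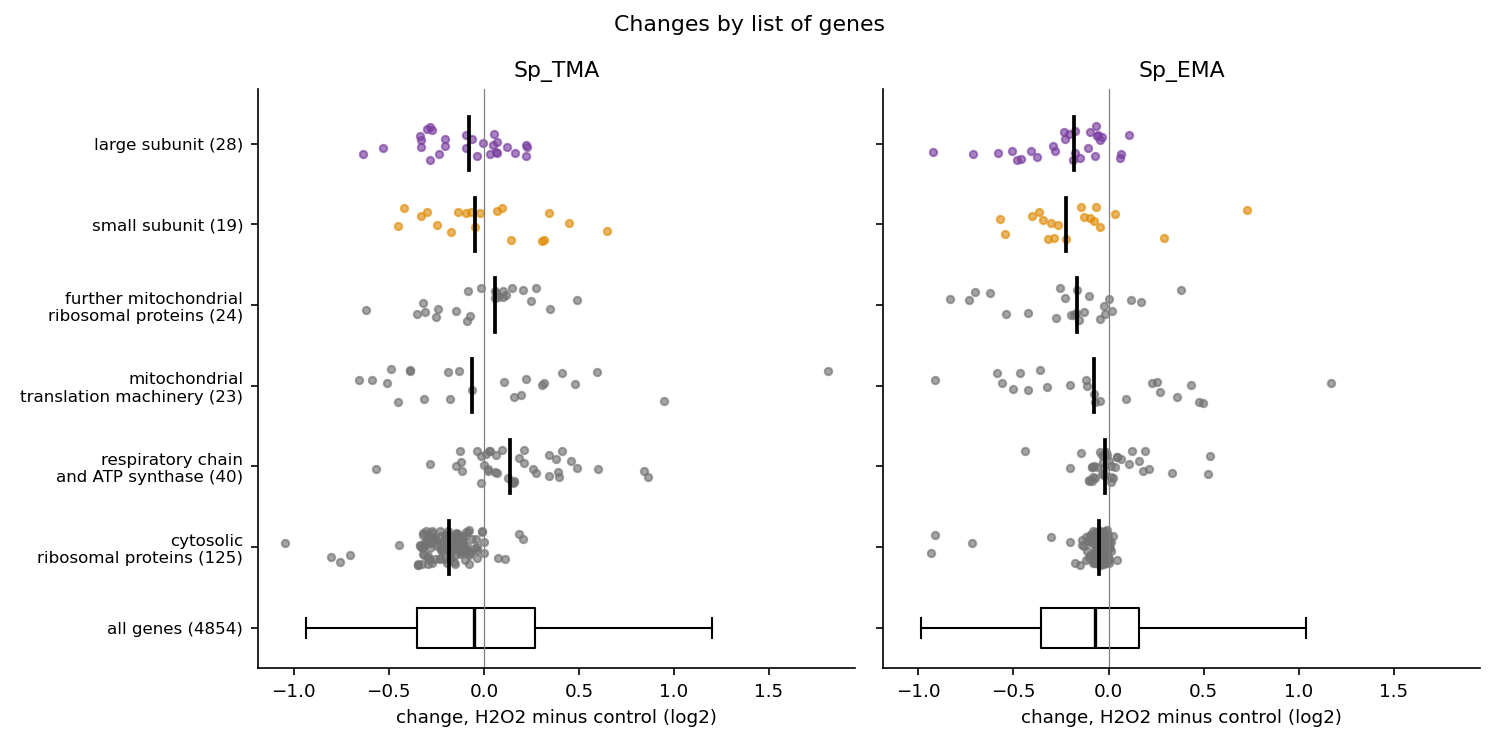
Change in H2O2 (log2, horizontal axis) of each gene in 6 lists (vertical axis, number of genes in parentheses) on Sp_TMA and Sp_EMA, with the median as a black line, and all genes as a box (quartiles) with whiskers from the 5th to the 95th percentile. The medians of the large and the small subunit lie at -0.08 and -0.05 on Sp_TMA and at -0.18 and -0.22 on Sp_EMA.

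The members are short genes spread over the genome. The median coding length was 480 bases in the large and 501 in the small subunit, against 1173 for all genes, and 17 of 28 and 9 of 19 have a single coding exon, as do 53.1% of all genes. Chromosomes I, II and III hold 9, 13 and 6 large-subunit and 9, 8 and 2 small-subunit genes. The gene rsm1, set aside at the start, fell on both platforms, with 8.49 and 8.55 in H2O2, against 9.18 and 9.02 in control cells on Sp_TMA and 10.67 and 10.89 in H2O2, against 11.50 and 11.65 in control cells on Sp_EMA. Its changes of -0.58 and -0.80 would have been the second greatest falls beside those of the members on each platform.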

How the data were processed

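RNA from 4 samples (2 cultures, H2O2 and control) was hybridised to 2 platforms. The authors grouped unique probes by gene with their own chip description files and made the deposited log2 values with RMA (background adjustment, quantile normalization within a platform, median polish). The software version is not given in the sources used here. The values were used as deposited for the 4854 genes present on both platforms. Quantile normalization removes shifts common to an array, so changes are relative to the other genes. Precision is set by the number of arrays, and the median standard error of a member's change was 0.09 on Sp_TMA and 0.06 on Sp_EMA.

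The members and lists were chosen with earlier results of these data known. Products, positions and opposite-strand transcripts came from the RefSeq annotation of ASM294v3, to which 4845 identifiers were matched by systematic name. The product was read as ribosomal also where the annotation names the subunit inside the phrase. Some members appear there under other symbols, mrpl11 as mrp11 and mrps5 as mrp5. Lists held further mitochondrial ribosomal proteins (by product), mitochondrial translation genes, respiratory genes and cytosolic ribosomal proteins (by symbol). Promoters were 250 bases read from that genome, and protein composition was not analysed here.

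Each platform's H2O2 and control arrays were compared with limma 3.58.1 (R 4.3.3, lmFit and eBayes, Benjamini-Hochberg over 4854 genes, two-sided), and the platform difference as a contrast of the 4 group means. With 2 against 2 arrays an exact permutation test cannot go below p = 0.333, so none was run. The labels number the biological replicates, and the study's methods describe 2 cultures sampled before and after peroxide without numbering them. That a number marks the same culture in both conditions was therefore assumed. As a check, the gap between the cultures was compared before and after peroxide over all genes. The correlation was -0.0585 for the tiling array and 0.253 for the expression array, which does not settle the assumption. The rule for naming members covered those past the threshold on both platforms (up to 6 per subunit and direction by change on Sp_TMA) and those called in opposite directions. It also covered those past the threshold for the platform difference, and the brightest and dimmest 2 per subunit. Values by array are not given for all of these, as for mrpl17 and rsm24. They are given for mrp20, which falls outside the rule. The fits were tested on simulated data. Of 50 genes given a log2 change of 0.3, 1 was recovered on Sp_TMA and 19 on Sp_EMA, and of 50 given a change of 1, 42 and 41. The simulation changed fewer genes than were called here, so these counts are not the recovery in the real data. Tables and figures used Python 3.11.15, pandas 2.3.3, numpy 2.4.6, Biopython 1.88 and matplotlib 3.10.9. Alternatives were an intensity trend, robust eBayes, a replicate block, leaving out each array, median centring, quantile normalization of the gene-level values, a filter that dropped the 25% of genes with the lowest signal, and a threshold of 0.01.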

Additional observations from a re-analysis of the deposited data

Results flagged for a closer look

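The members mrpl37 and rsm18 differed between the platforms by the test of the difference itself. For mrpl37 the Sp_TMA change minus the Sp_EMA change was 0.63 (95% interval 0.36 to 0.89), with a fall on both platforms. For rsm18 it was 0.61 (95% interval 0.36 to 0.86), with a rise on Sp_TMA and a fall on Sp_EMA. Leaving out the H2O2 array of culture 1 on Sp_TMA kept the call of mrpl37 and no single-array omission kept that of rsm18, whose adjusted p then lay between 0.0664 and 0.137.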

How the results depend on the processing

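No called change of a member turned its sign under any alternative. At a threshold of 0.01 the large subunit had 2 falls on Sp_TMA, and the small subunit 0 falls and 3 rises on Sp_TMA and 5 falls on Sp_EMA. Quantile normalization of gene values and leaving out the dimmest genes each gave 1 rise in the large subunit and 5 falls in the small on Sp_TMA. Leaving out each array in turn gave 3 to 6 falls and 0 to 1 rises in the large subunit and 0 to 3 falls and 3 to 4 rises in the small on Sp_TMA, and 6 to 14 falls and 0 to 1 rises in the large and 5 to 8 falls and 1 to 2 rises in the small on Sp_EMA. The median change then ran from -0.27 to -0.13 in the large and from -0.26 to -0.13 in the small subunit on Sp_EMA. On Sp_TMA it changed sign, from -0.16 to 0.01 in the large and from -0.13 to 0.11 in the small subunit. The replicate block gave 9 falls in the large and 4 falls and 5 rises in the small subunit on Sp_TMA, and 12 falls in the large and 9 falls and 2 rises in the small on Sp_EMA. It changed no call of a member other than those of mrp20, rsm27, mrpl40 and mrpl28. For the difference between platforms the replicate block gave 6 members, and leaving out each array 0 to 1. Over the 48 genes found by name, rsm1 included, 104 comparisons with an alternative lost the call, 23 gained it and 941 kept their side of the threshold. The causes were not tested. Testing all genes of each table was not run, because both tables hold the same 4854 genes. With 2 arrays per group, the smallest change of a member that was called was -0.27 on Sp_TMA and -0.15 on Sp_EMA.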
